A study of Mus musculus with 5 samples.

Results

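The nuclear genes of the mitochondrial ATP synthase are the subject here, taken as 10 named genes of the 17015 in the deposited table. They are Atp5a1, Atp5b, Atp5c1, Atp5d, Atp5g1, Atp5g2, Atp5g3, Atp5h, Atp5j and Atpif1, chosen by name, with earlier results of these data already known. Each had 1 row in the table, and all 10 passed the expression minimum used for testing, a mean of 0.5 FPKM (a fragment level corrected for transcript length and library size). RNA-seq was done on the tibialis anterior (TA), a fast-twitch lower leg muscle, of 8-week-old sedentary male mice. There were 3 libraries from WT control mice, described by the study as Cre-negative littermates, and 2 libraries labelled skmNrip1-/-, from mice that carry Nrip1 fl/fl alleles, made in C57BL/6J, together with Cre driven by the myogenin promoter, which came from C57BL/6JN parents. Nrip1 encodes RIP140, a transcriptional coregulator, and the loxP sites flank exon 4, which holds its coding sequence. The myogenin promoter drives Cre in skeletal muscle from development onward, so other cells of a whole muscle would keep the gene. The comparison asks how the mRNAs of the ATP synthase differ between these groups.

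The ATP synthase makes ATP from ADP and phosphate at the inner mitochondrial membrane, using the proton gradient that the respiratory chain builds. Protons pass through a ring of c subunits in the membrane sector Fo, the turning ring drives a central stalk, and the stalk changes the shape of the catalytic head F1, while a peripheral stalk holds the head still. Atpif1 encodes the inhibitory factor IF1, which binds F1 and blocks ATP hydrolysis when the gradient is lost. Skeletal muscle is rich in the enzyme, above all in its oxidative fibers.

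The c subunit is encoded by 3 nuclear genes whose products differ in the N-terminal import sequence that is removed in the mitochondrion. The last 234 coding bases of Atp5g1, Atp5g2 and Atp5g3 are printed because they show why 1 mature protein can be counted as 3 separate mRNAs. In each gene these bases encode the same 78 C-terminal residues, after 58, 68 and 63 residues of gene-specific sequence, respectively. They come from the GENCODE M21 transcripts on build GRCm38 and are given 5′ to 3′ in the sense of the mRNA, with capitals at the 63 positions where the 3 genes are not all alike.
Atp5g1: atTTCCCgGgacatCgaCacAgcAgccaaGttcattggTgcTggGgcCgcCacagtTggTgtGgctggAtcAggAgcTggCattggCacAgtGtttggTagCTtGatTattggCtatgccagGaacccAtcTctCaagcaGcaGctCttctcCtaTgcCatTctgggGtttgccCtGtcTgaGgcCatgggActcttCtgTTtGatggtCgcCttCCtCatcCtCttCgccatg
Atp5g2: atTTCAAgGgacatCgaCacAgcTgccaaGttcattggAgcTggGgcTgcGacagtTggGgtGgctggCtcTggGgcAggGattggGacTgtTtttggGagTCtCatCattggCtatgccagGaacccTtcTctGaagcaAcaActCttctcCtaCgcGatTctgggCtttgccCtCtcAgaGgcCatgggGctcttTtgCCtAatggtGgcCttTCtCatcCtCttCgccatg
Atp5g3: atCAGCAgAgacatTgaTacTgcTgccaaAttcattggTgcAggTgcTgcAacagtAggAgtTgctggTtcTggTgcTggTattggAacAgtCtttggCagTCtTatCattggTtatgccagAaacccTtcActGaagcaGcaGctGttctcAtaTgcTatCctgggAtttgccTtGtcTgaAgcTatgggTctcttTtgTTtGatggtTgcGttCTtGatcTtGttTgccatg
The other 171 positions were identical, and 55 of the 78 codons held a difference. The stretch is coding exon sequence on the minus strand in every case and is split over a pair of exons. For Atp5g1 these were exon 4 (chr11:96073523-96073644) and exon 5 (chr11:96073107-96073218), for Atp5g2 exon 3 (chr15:102665054-102665175) and exon 4 (chr15:102663017-102663128), and for Atp5g3 exon 4 (chr2:73909184-73909305) and exon 5 (chr2:73908596-73908707). Over the stretch, Atp5g1 and Atp5g2 were identical at 84.6% of bases, Atp5g1 and Atp5g3 at 78.6%, and Atp5g2 and Atp5g3 at 77.4%. The longest run of identical bases between any pair was 20, in Atp5g1 and Atp5g2, so a read of 150 bases from this stretch holds positions that tell the 3 genes apart.

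The members differed widely in level. In WT control muscle Atp5b was the most abundant by mean FPKM, followed by Atp5g1, Atp5g3, Atp5h, Atp5c1, Atp5j, Atp5a1, Atp5d, Atp5g2 and Atpif1, and the first exceeded the last by 84.6-fold. The WT control ranges of Atp5h, Atp5c1 and Atp5j overlapped one another, that of Atp5a1 (582 to 659 FPKM) overlapped that of Atp5j (558 to 746 FPKM), and those of Atp5g2 and Atpif1 overlapped, so these neighbours did not differ beyond their spread. In the libraries labelled skmNrip1-/- Atp5c1 and Atp5a1 stood above Atp5h, and the rest of the order was the same.

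**Figure D1:**
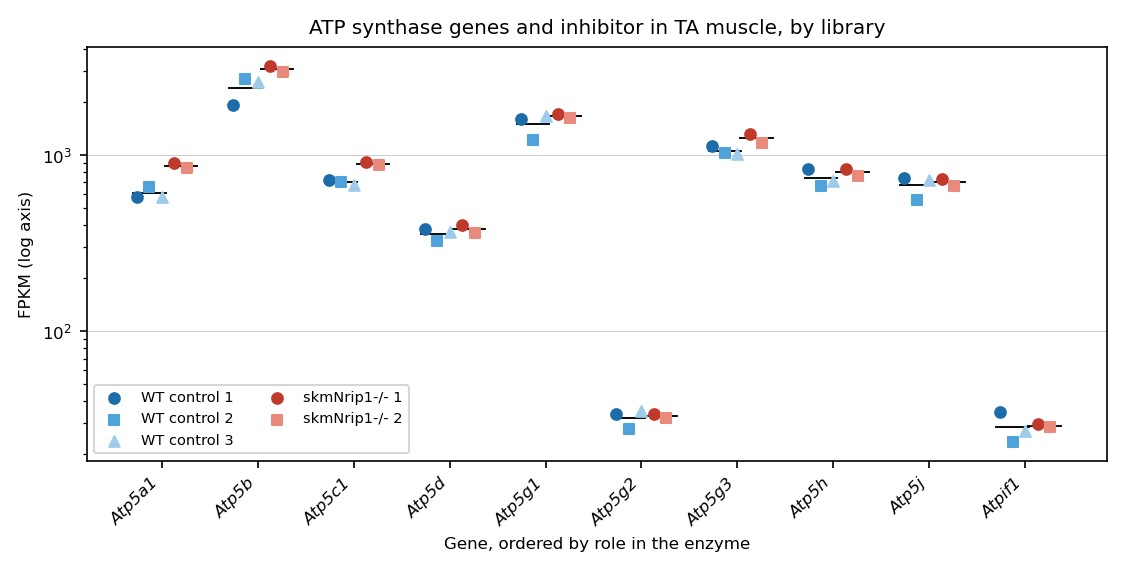
FPKM of each of the 10 members in each of the 5 libraries, on a log scale, with group means as short horizontal lines. Atp5a1, Atp5b, Atp5c1 and Atp5g3 were higher in both libraries labelled skmNrip1-/- than in every WT control library, and the other 6 overlapped.

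The targeted gene was higher, not lower, in the libraries labelled skmNrip1-/-. Nrip1 stood at 4.64, 7.69 and 6.55 FPKM in WT control 1 to 3 and at 25.3 and 22.5 FPKM in the others, a log2 fold change of 1.94 (SE 0.21, limma adjusted p = 0.0261). This call was lost without WT control 3 (adjusted p = 0.146), skmNrip1-/- 1 (adjusted p = 0.204) or skmNrip1-/- 2 (adjusted p = 0.142), and the groups did not overlap. A gene-level value does not separate exon 4 from the exons outside the deletion, and every direction given here rests on the labels. The summed FPKM of 8 muscle fiber markers was 69955 to 92521 in WT control and 68113 to 70353 in the libraries labelled skmNrip1-/-. Its members did not move as one, since Mb, the oxygen-binding myoglobin of oxidative fibers, was at 4522, 4329 and 5157 FPKM against 7764 and 7664 FPKM, and Acta1, skeletal actin, at 16403 to 21925 FPKM against 14766 and 14369 FPKM, both without overlap. Ckm was also lower without overlap, at 11835 to 16980 FPKM against 11723 and 10393 FPKM. So was Mylpf, at 7397 to 11369 FPKM against 6716 and 6951 FPKM, and the remaining fiber markers overlapped. Among them, Myh2 was at 1102 FPKM in WT control 3, against 223 to 406 FPKM in the other 4 libraries. Of the 10 marker lists, 2 of the 4 heart markers (Nppa and Myl7) had no row in the table used here, and no other marker was at 0 in any library. The 13 protein-coding genes of mitochondrial DNA took 45.4 to 50.7% of the summed FPKM in WT control. In the libraries labelled skmNrip1-/- they took 58.6 and 60.9%. Summed blood markers were 511 to 764 FPKM against 996 and 827 FPKM, without overlap. Ighm, which made up nearly all of the summed B cell markers, was at 12.2 to 22.1 FPKM against 2.98 and 4.57 FPKM. The B cell marker Cd79a was also lower without overlap, at 0.106 to 0.178 FPKM against 0.0219 and 0.0367 FPKM. Ms4a1 was higher, at 0.104 to 0.194 FPKM against 0.266 and 0.270 FPKM, and Cd79b overlapped. Summed slow fiber markers were 307 FPKM in WT control 3, of which Myl3 gave 285 FPKM, against 104 to 139 FPKM in the other 4 libraries. Myl2 of the same list stood at 2.03, 1.85 and 9.68 FPKM in WT control and at 42.1 and 33.6 FPKM in the libraries labelled skmNrip1-/-, without overlap. Myl3 went the other way, at 89.6, 124 and 285 FPKM against 54.1 and 71.3 FPKM, also without overlap. The remaining slow fiber markers overlapped. The part of these differences in the values below was not tested, and in a whole muscle fewer cells of a type cannot be told apart from less RNA per cell.

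None of the 10 members passed the test, with limits of 0.05 for the adjusted p over 12148 genes and 1.2 for the fold change. The same test called 45 genes higher and 10 lower, or 0.453% of all genes tested. At an unadjusted limma p of 0.05 or less, 2 of 10 members (Atp5a1 and Atp5c1) were higher and none was lower, where 6.57% of all genes were higher at that p. In 4 of 10 members both libraries labelled skmNrip1-/- lay above every WT control library, as did 15.8% of all genes. No member lay below every WT control library, as did 14.4% of all genes. The log2 fold change was above 0 in 10 of 10 members, with a median of 0.14, against 49.9% of all genes with a median of -0.00. The members share an enzyme and the same 5 libraries, so they are not independent observations, and p-values measure only the spread between these samples.

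**Figure D2:**
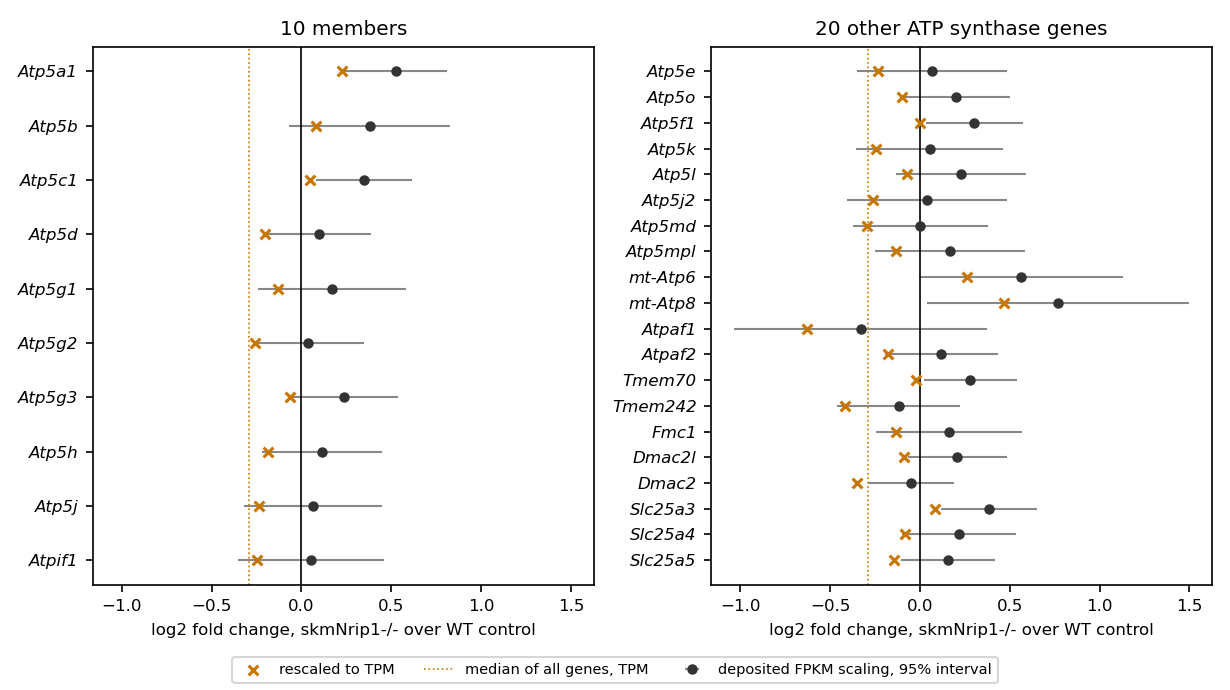
Log2 fold change, libraries labelled skmNrip1-/- minus WT control, of the 10 members and the 20 other ATP synthase genes by role, as points with 95% limma intervals. The other genes include assembly factors and carriers besides subunits. Among the members only the intervals of Atp5a1 and Atp5c1 exclude 0, and no gene shown passed the adjusted threshold.

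Of the catalytic head, Atp5a1 encodes the α subunit, which carries nucleotide sites that do not catalyse, and Atp5b encodes the β subunit, which holds the catalytic sites. Atp5a1 (ENSMUSG00000025428, chr18:77773729-77782869, plus strand) was at 582, 659 and 583 FPKM in WT control and at 900.5 and 846 FPKM in the libraries labelled skmNrip1-/-. The groups did not overlap, and the means were 608 ± 44.2 (SD, n = 3) and 873 ± 38.4 FPKM (SD, n = 2). The log2 fold change of Atp5a1 was 0.52 (SE 0.12, 95% interval 0.24 to 0.81), with an unadjusted limma p of 0.00372 and an adjusted p of 0.181. It ranked 249 of 12148 genes by p, the best place of any member. Atp5b (ENSMUSG00000025393, chr10:128083273-128090391, plus strand) was at 1921, 2700.2 and 2602 FPKM in WT control and at 3218 and 2977 FPKM in the libraries labelled skmNrip1-/-. Here too the groups did not overlap, but WT control 1 stood well below the other control libraries. The means were 2408 ± 424 (SD, n = 3) and 3098 ± 170.3 FPKM (SD, n = 2), with a log2 fold change of 0.38 (95% interval -0.07 to 0.83, limma adjusted p = 0.495). Without WT control 1 the log2 fold change of Atp5b was 0.22. The ratio of Atp5b to Atp5a1 was 3.30, 4.10 and 4.47 in WT control and 3.57 and 3.52 in the other group, so that it overlapped.

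Of the central stalk, Atp5c1 encodes the γ subunit, the shaft that turns inside the head, and Atp5d encodes the δ subunit at its foot, where it meets the c-ring. Atp5c1 (ENSMUSG00000025781, chr2:10056016-10080510, minus strand) was at 727, 702 and 676 FPKM in WT control and at 912 and 875 FPKM in the libraries labelled skmNrip1-/-. The groups did not overlap, and Atp5c1 had the smallest spread among controls relative to its mean, with means of 702 ± 25.2 (SD, n = 3) and 893 ± 26.6 FPKM (SD, n = 2). Its log2 fold change was 0.35 (SE 0.11, 95% interval 0.08 to 0.61), with an unadjusted limma p of 0.0177 and an adjusted p of 0.302. Atp5d (ENSMUSG00000003072, chr10:80138632-80145818, plus strand) was at 379.8, 324 and 364 FPKM in WT control and at 399 and 362 FPKM in the libraries labelled skmNrip1-/-. These groups overlapped, and the log2 fold change of 0.10 had a 95% interval of -0.19 to 0.39 (limma adjusted p = 0.818), and ran from 0.026 to 0.17 with single libraries left out. Within a library, a ratio of 2 genes does not depend on how libraries are scaled to each other. The ratio of Atp5c1 to Atp5d was 1.91, 2.17 and 1.86 in WT control and 2.28 and 2.42 in the libraries labelled skmNrip1-/-, and that of Atp5a1 to Atp5d was 1.53, 2.03 and 1.60 against 2.25 and 2.34. Both ratios were higher in the libraries labelled skmNrip1-/- without overlap, a description for which no test was run. Atp5d had a median transcript GC content of 61.1%. After an adjustment of each library for GC content, chosen after the data were seen, the log2 fold change was 0.26 for Atp5d, 0.31 for Atp5c1 and 0.54 for Atp5a1. The values of Atp5c1 and Atp5d then lay closer together than without it.

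Of the c-ring genes, Atp5g1 and Atp5g3 made up nearly the whole level. Atp5g1 (ENSMUSG00000006057, chr11:96068852-96075670, minus strand) was at 1602, 1216 and 1677 FPKM in WT control and at 1722 and 1618 FPKM in the libraries labelled skmNrip1-/-. The groups overlapped and WT control 2 stood lowest, with a log2 fold change of 0.17 (95% interval -0.24 to 0.58, limma adjusted p = 0.776). For Atp5g1 this value was 0.026 without WT control 2 and 0.26 without WT control 3. Atp5g3 (ENSMUSG00000018770, chr2:73908447-73911326, minus strand) was at 1131, 1031 and 1016 FPKM in WT control and at 1318 and 1178 FPKM in the libraries labelled skmNrip1-/-. It was the c-ring gene whose groups did not overlap, with a log2 fold change of 0.24 (95% interval -0.07 to 0.54, limma adjusted p = 0.540). Atp5g2 (ENSMUSG00000062683, chr15:102662864-102672352, minus strand) was at 33.8, 28.0 and 35.1 FPKM in WT control and at 33.8 and 32.2 FPKM in the libraries labelled skmNrip1-/-. These values overlapped, with a log2 fold change of 0.04 (95% interval -0.27 to 0.35, limma adjusted p = 0.941).

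Atp5g1 took 57.9, 53.4 and 61.5% of the summed c-ring FPKM in WT control and 56.0 and 57.2% in the libraries labelled skmNrip1-/-. Atp5g3 took 40.9, 45.3 and 37.2% against 42.9 and 41.6%. Both shares overlapped between the groups. Atp5g2 took 1.22, 1.23 and 1.29% against 1.1 and 1.14%, which did not overlap, a difference of means of -0.13 percentage points.

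The level of Atp5g2 is uncertain because of a near-identical copy. The transcribed processed pseudogene Gm10175 (ENSMUSG00000066724, chr7:23946646-23947290, minus strand) had 615 distinct words of 31 bases in its annotated transcripts, and all 615, or 100%, were also in transcripts of Atp5g2. They made up 37.5% of the words of Atp5g2. The FPKM of Gm10175 were 415.1, 317.5 and 362 in WT control, against 386 and 338 in the libraries labelled skmNrip1-/-, which is 10.3 to 12.3 times the level of Atp5g2. The groups overlapped for the copy as well, and the sum of both genes was 449, 345 and 397 FPKM against 420.1 and 370.1 FPKM, a log2 difference of -0.00. How many of the fragments given to the copy came from Atp5g2 mRNA was not tested. Counted into the c-ring sum, the copy would take 10.7 to 13.0% of it. Among the other members the share of words found in another gene was 0% for Atp5g3, 2.23 to 14.1% for Atp5a1, Atp5b, Atp5c1, Atp5d, Atp5g1 and Atp5j, 25.4% for Atp5h and 31.5% for Atpif1.

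The F1 catalytic pair was then set against the c-ring. The sum of Atp5a1 and Atp5b was 2503, 3359 and 3184 FPKM in WT control and 4119 and 3824 FPKM in the libraries labelled skmNrip1-/-, without overlap, a log2 difference of 0.41. The sum of the 3 c-ring genes was 2767, 2275 and 2728 FPKM against 3074 and 2828 FPKM, also without overlap, a log2 difference of 0.19. The ratio of the first sum to the second was 0.905, 1.48 and 1.17 in WT control and 1.34 and 1.35 in the libraries labelled skmNrip1-/-. The means were 1.18 ± 0.286 (SD, n = 3) and 1.35 ± 0.00877 (SD, n = 2). WT control 2 had the highest ratio of all 5 libraries and WT control 1 the lowest, so the groups overlapped, and the log2 difference of 0.22 was smaller than the control SD of 0.35 on the same scale. That difference rested on single control libraries, being 0.036 without WT control 1 and 0.39 without WT control 2. Summing the 4 F1 members (Atp5a1, Atp5b, Atp5c1 and Atp5d), without the further F1 gene Atp5e, gave a log2 difference of 0.18. Atp5b alone gave 0.19, the c-ring with the Atp5g2 copy 0.24, and means of log2 values in place of sums 0.30. Atp5a1 alone over the c-ring was 0.210, 0.290 and 0.214 in WT control and 0.293 and 0.299 in the libraries labelled skmNrip1-/-, which did not overlap although WT control 2 lay close to them, a log2 difference of 0.33. None of these ratios was tested.

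**Figure D3:**
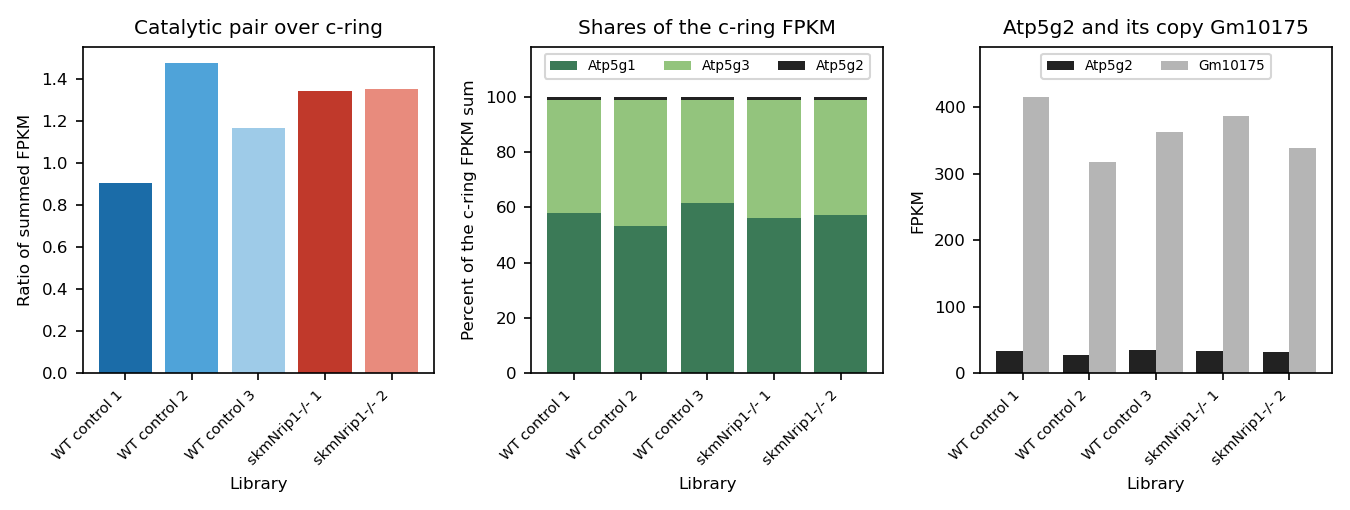
For each library, the ratio of the summed FPKM of Atp5a1 and Atp5b to that of the c-ring genes (left), the percent of the c-ring FPKM from each of its 3 genes (middle), and the FPKM of Atp5g2 beside its copy Gm10175 (right). The ratio spans 0.905 to 1.48 in WT control, which holds both other values, and Gm10175 is over 10 times the level of Atp5g2 in every library.

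Of the peripheral stalk, Atp5h encodes subunit d and Atp5j encodes coupling factor F6. Atp5h (ENSMUSG00000034566, chr11:115415689-115419962, minus strand) was at 834, 666 and 718 FPKM in WT control and at 837 and 759 FPKM in the other group. The log2 fold change of Atp5h was 0.11 (95% interval -0.22 to 0.45, limma adjusted p = 0.815), from 0.042 without WT control 2 to 0.20 without WT control 1. Atp5j (ENSMUSG00000022890, chr16:84827866-84835625, minus strand) was at 746, 558 and 725 FPKM against 731 and 673 FPKM, with a log2 fold change of 0.06 (95% interval -0.32 to 0.45, limma adjusted p = 0.917). Both genes overlapped between the groups and were lowest in WT control 2.

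The inhibitor Atpif1 (ENSMUSG00000054428, chr4:132530555-132533659, minus strand) was the least abundant member, at 34.6, 23.5 and 27.2 FPKM in WT control and at 29.8 and 28.5 FPKM in the libraries labelled skmNrip1-/-. The groups overlapped, with both latter values inside the control range, and the log2 fold change was 0.05 (95% interval -0.35 to 0.46, limma adjusted p = 0.938). Set against its target, the level of Atpif1 was 1.80, 0.872 and 1.05% of that of Atp5b in WT control and 0.925 and 0.958% in the libraries labelled skmNrip1-/-, again with overlap. The interval holds a fall as well as a rise, so these data do not show that the inhibitor stayed the same.

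By role, the median log2 fold change of the members was 0.45 for the catalytic pair, 0.22 for the central stalk and 0.17 for the c-ring. It was 0.09 for the peripheral stalk and 0.05 for the inhibitor. Subunits outside the members did not follow this order. Atp5f1 and Atp5o of the peripheral stalk had a median of 0.25, and Atp5e of the central stalk was at 0.07. The order thus depends on which subunits were members. The intervals of the single genes are wider than the steps in this order. In 10 of 10 members the library skmNrip1-/- 1 was above skmNrip1-/- 2, and in 6 of 10 WT control 2 was the lowest of the 5 libraries, as in 2074 of the 12148 genes tested.

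The level in WT control 2 went together with transcript length. Of the 6 members with a median transcript length under 1000 nucleotides (Atp5d, Atp5g2, Atp5g3, Atp5h, Atp5j and Atpif1), 5 were lowest in WT control 2. Over all 315 genes of that length with 100 FPKM or more, the median of log2(FPKM + 0.1) minus the 5-library mean was 0.23 in WT control 1, -0.19 in WT control 2, -0.02 in WT control 3, 0.05 in skmNrip1-/- 1 and -0.05 in skmNrip1-/- 2. Over all 2616 tested genes of that length, at any level, the medians were 0.12 in WT control 1 and -0.08 in WT control 2, and Atp5g2 and Atpif1 were themselves under 100 FPKM. Atp5g1 was also lowest in WT control 2, at a median length of 2675.5 nucleotides over its annotated coding transcripts. After an adjustment of each library for length, chosen after the data were seen, the log2 fold change was 0.51 for Atp5a1 (limma adjusted p = 0.115) and 0.38 for Atp5c1 (adjusted p = 0.180), and no member passed the test. Leaving out WT control 2 brought the member median from 0.14 to 0.04, with Atp5g2 at -0.06, Atp5j at -0.07 and Atpif1 at -0.07.

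**Figure D4:**
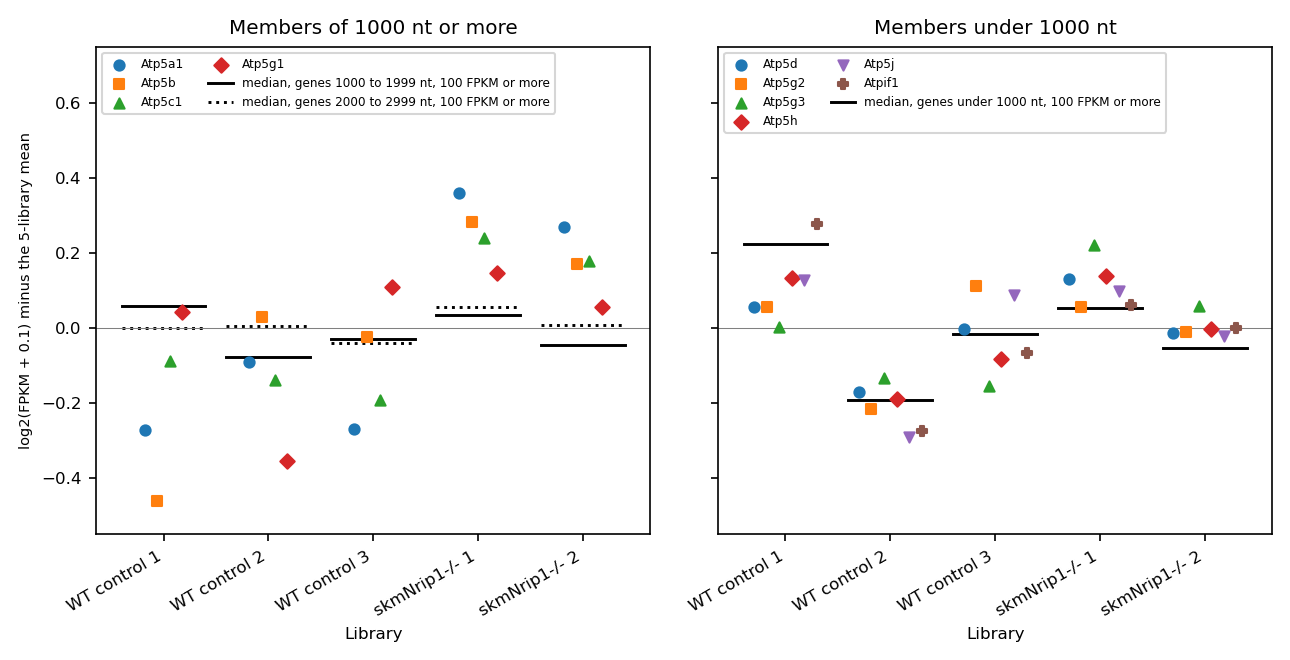
Level of each member in each library, as log2(FPKM + 0.1) minus its 5-library mean, for members of 1000 nucleotides or more (left) and under 1000 nucleotides (right), with black lines at the median of all genes of that length and 100 FPKM or more. In WT control 2 the short members lie from -0.29 (Atp5j) to -0.13 (Atp5g3), on both sides of the line of their length class at -0.19. Atp5g2 and Atpif1 are under 100 FPKM and so are not among the genes behind that line. Atp5a1, Atp5b, Atp5c1 and the short member Atp5g3 are highest in both libraries labelled skmNrip1-/-.

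The direction of the smaller values rested on the scaling. In the deposited FPKM the median ratio of a gene to its mean was the same in all 5 libraries, while the sums ran from 969144 to 1288038. These sums include the 13 protein-coding genes of mitochondrial DNA. They took 45.4 to 50.7% in WT control and 58.6 and 60.9% in the other group. With a common sum, a larger share for these genes lowers the values of the rest. How much of the shift given next this made was not tested. Rescaled to a common sum (TPM), the median log2 fold change of all genes was -0.29, that of the members was -0.16, and 7 of 10 members were below 0, with Atp5a1 at 0.23, Atp5b at 0.08 and Atp5c1 at 0.05 above it. All 10 members were above the median of all genes on that scale as well. The members summed to 1.32, 1.56 and 1.59% of the FPKM outside the 13 mitochondrial DNA genes in WT control. In the libraries labelled skmNrip1-/- the members summed to 1.89 and 1.86%, without overlap. Of the FPKM of all genes they took 0.698, 0.767 and 0.869% against 0.784 and 0.727%, which overlapped.

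Other subunits and genes that serve the enzyme were described with a list of 22 further genes, of which 20 were in the table and passed the minimum. Of these 20, 7 were assembly and related genes, 3 were carriers and the others were subunits. None of the 20 was called. The log2 fold change was above 0 in 17 and below 0 in 3, with a median of 0.17. Those below 0 were Atpaf1 (-0.33), an assembly factor of F1, Tmem242 (-0.12) and Dmac2 (-0.05), all among the assembly and related genes. Every listed subunit and carrier in the table was above 0. Atpaf1 was at -0.077 without WT control 3, -0.062 without skmNrip1-/- 2, -0.56 without WT control 1 and -0.60 without skmNrip1-/- 1. Rescaled to TPM, 4 of the 20 (Atp5f1, mt-Atp6, mt-Atp8 and Slc25a3) were above 0 and 16 below, with a median of -0.13 beside the -0.29 of all genes. In 9 of the 20 both libraries labelled skmNrip1-/- were above every WT control library, where 15.8% of all genes were, and in none were both below, as 14.4% of all genes were. At an unadjusted limma p of 0.05 or less 4 of the 20 were higher, against 6.57% of all genes. The first of these 4 was Slc25a3, the carrier that brings phosphate to the enzyme, at 711, 746 and 707 FPKM in WT control and at 971 and 915 FPKM in the other group. For Slc25a3 the log2 fold change was 0.39 (limma adjusted p = 0.267). Atp5f1, subunit b of the peripheral stalk, had a log2 fold change of 0.30 (limma adjusted p = 0.370), and Tmem70, which helps assemble the c-ring, one of 0.28 (limma adjusted p = 0.383). Both subunits encoded in mitochondrial DNA were also in the list. The gene mt-Atp8 was at 171383, 196076 and 148492 FPKM in WT control and at 283085 and 299742 FPKM in the libraries labelled skmNrip1-/-, a log2 fold change of 0.77 (limma adjusted p = 0.395). The gene mt-Atp6, whose product forms the proton path beside the c-ring, was at 37712, 31294 and 26756 FPKM against 45810.0 and 47641 FPKM, a log2 fold change of 0.56 (limma adjusted p = 0.423). The groups did not overlap for either of these mitochondrial genes, whose transcripts overlap each other on the genome, so fragments may be split between them.

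Genes with the most similar profiles were found by the root-mean-square difference in log2(FPKM + 0.1), centred on each gene's mean, over the 5 libraries. For Atp5a1 they were Acad9 (0.022), the processed pseudogene Gm4739 (0.022) and Idh3a (0.026). For Atp5b they were Cenpc1 (0.039), Nln (0.048) and Cluh (0.048), and for Atp5g1 Osr1 (0.027), Fmc1 (0.041) and Irak1bp1 (0.042). With 5 libraries such likeness is a description only.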

How the data were processed

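Total RNA from TA muscle was made into libraries with the NEBNext Ultra kit. Per the labels and the methods, the authors quantified reads with Salmon 1.10.2 on mm10, summed transcripts to genes with tximport and compared groups with DESeq2 1.44.0. The deposited values used here are FPKM per gene and library. How the FPKM were computed and which annotation release was used are not given in the sources used here, and the read depth behind them is unknown. The deposited log2 fold changes and adjusted p-values of the authors' own comparison were not used.

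FPKM were tested as log2(FPKM + 0.1) with limma 3.58.1 (R 4.3.3, moderated with an intensity trend, Benjamini-Hochberg over the 12148 genes whose mean reached 0.5 FPKM), so fold changes of low genes are understated. Calls were made up to an adjusted p of 0.05 and from a fold change of 1.2. The 2 groups were compared without covariates, on all 5 libraries. The fit was tested on simulated data with changes larger than those of the members. That test does not show whether changes of the members' size would be called. Ratios and shares were not tested. Positions, lengths and sequences came from GENCODE M21 (GRCm38), which held 17008 of 17015 gene IDs, and were handled in Python 3.11.15. Shared words are stretches of 31 bases. The genes named are the 10 members, the other ATP synthase genes of a fixed list, Nrip1, and the 3 genes nearest in profile to each of Atp5a1, Atp5b and Atp5g1. Gm10175 was named after its values were seen. The members and lists were chosen with earlier results of these data known. Alternatives were other pseudocounts, minimums, scalings and variance models, a replicate block, each library left out, and adjustments for length and GC content, the last pair added after seeing the data.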

Additional observations from a re-analysis of the deposited data

How the results depend on the processing

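Over 160 member fold changes in 16 alternatives no member or other ATP synthase gene was called, and 150 kept the direction of the reported value. Other minimums, other variance models and a rescaling by the median ratio left the fold changes as they were, so these could not reverse one. The replicate block gave the fold changes found without WT control 3. Of the reversed values, 7 came under TPM and 3 without WT control 2. Rescaled to TPM, log2 fold changes were -0.20 for Atp5d, -0.13 for Atp5g1, -0.26 for Atp5g2, -0.064 for Atp5g3, -0.19 for Atp5h, -0.24 for Atp5j, -0.25 for Atpif1 and -0.019 for Tmem70, and 16 of the 20 other ATP synthase genes were below 0. The shift of all genes on that scale was -0.29. With single libraries left out the log2 fold change ran from -0.061 to 0.10 for Atp5g2, from -0.069 to 0.14 for Atp5j, from -0.075 to 0.20 for Atpif1 and from -0.18 to 0.0052 for Tmem242. The lowest values of the first 3 came without WT control 2, and the highest of Tmem242 without WT control 1. The smallest adjusted p of any member over all alternatives was 0.115.

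Calls over all genes (45 higher, 10 lower) were 29 higher and 59 lower under TPM and 22 and 3 in limma without the intensity trend, where Nrip1 had an adjusted p of 0.0769 and was not called. They ran from 6 to 51 higher and from 2 to 15 lower with single libraries left out. The fewest higher calls came without skmNrip1-/- 2 (6 and 3) and skmNrip1-/- 1 (8 and 7), then without WT control 3 (17 and 2) and WT control 1 (24 and 3). Causes were not tested. With the replicate number as a block there were 18 higher and 4 lower calls, a smallest member adjusted p of 0.442 and one of 0.128 for Nrip1, which lost its call. The numbers were not taken to pair the libraries, since the deviations of the same-numbered pairs correlated at only 0.06 and 0.10. With 3 and 2 libraries and unknown depth, the smallest difference that could be detected was not computed. Among the members only the reported intervals of Atp5a1 and Atp5c1 exclude 0, and neither gene was called. The values of the other members do not show that these genes stayed the same.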
